A study of Mus musculus with 12 samples.

Results

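The 10 genes described here mark the endothelial cells that line the liver sinusoids: Stab2, Lyve1, Clec4g, Pecam1, Kdr, Cdh5, Tek, Fcgr2b, Oit3 and Dnase1l3. They were taken by symbol from the joined count tables, which list 25164 genes, and all 10 passed the low-count filter that left 13477 genes for testing. RNA was sequenced from whole livers of mice in 3 groups with 4 libraries each. Fenofibrate mice were on a high-fat diet, to which fenofibrate by gavage was added after 10 of its 14 weeks, so that drug and diet ran together for 4 weeks; fenofibrate is a lipid-lowering activator of the nuclear receptor PPARA. HFD mice had 14 weeks of the same diet with no drug stated, and Control mice 14 weeks of normal diet. The study assigned 10 mice to each group; strain, sex and age are not stated here, and nothing says whether the 4 libraries of a group came from single mice or pools. The p-values therefore measure the spread between these libraries.

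Liver sinusoidal endothelial cells form a thin wall without a basement membrane, pierced by open pores, through which plasma reaches the hepatocytes. They are the main scavengers of circulating waste such as hyaluronan, modified proteins and immune complexes, which they take up through dedicated receptors. Stab2, Lyve1, Clec4g and Fcgr2b encode such surface receptors and lectins. Pecam1 and Cdh5 encode adhesion molecules of endothelial junctions, and Kdr and Tek the receptors for VEGF and the angiopoietins; these 4 genes mark endothelium in general. Oit3 and Dnase1l3 encode secreted proteins. In whole liver, a lower level of such a transcript can come from fewer endothelial cells or from less RNA per cell, among other sources, and these cannot be told apart here.

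The upstream sequences of the scavenger receptor gene Stab2 and the lectin gene Clec4g are shown because Stab2 is a defining gene of these cells and Clec4g is the member whose level differed between groups. Each run gives the 250 bases before the RefSeq start, 5′ to 3′ on the strand of the gene, from RefSeq on GRCm38.p6, and capitals mark AGGAAG or its reverse complement CTTCCT, letters around the core that ETS transcription factors bind.
Stab2 (chr10:87007943-87008192, minus strand): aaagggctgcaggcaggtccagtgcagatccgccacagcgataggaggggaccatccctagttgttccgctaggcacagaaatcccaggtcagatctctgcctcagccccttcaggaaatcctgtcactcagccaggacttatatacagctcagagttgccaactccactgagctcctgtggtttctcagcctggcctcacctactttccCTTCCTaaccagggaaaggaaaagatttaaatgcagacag
Clec4g (chr8:3720652-3720901, minus strand): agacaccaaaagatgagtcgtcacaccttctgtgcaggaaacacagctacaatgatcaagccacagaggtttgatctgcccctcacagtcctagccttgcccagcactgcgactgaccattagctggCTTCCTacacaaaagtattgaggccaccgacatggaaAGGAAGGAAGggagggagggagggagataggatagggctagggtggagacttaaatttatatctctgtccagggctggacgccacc
Of the 5 members with an entry in the RefSeq table (Stab2, Clec4g, Kdr, Tek and Fcgr2b), these 2 hold the word, and 29.5% of all 32851 entries hold it on either strand. Clec4g holds it 3 times, of which 2 matches overlap, and Stab2 holds it 1 time. RefSeq places the start of Stab2 inside the gene as the deposited tables give it, so 83 bases of its window, with the marked word, lie within that gene; the Clec4g window lies wholly outside. A match describes letters in this window and not a binding site.

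Total counts ran from 15797016 to 18514481 per library. Levels below are TMM-scaled CPM, which puts the read counts of all libraries on 1 scale. HFD library 1 stood apart in these 10 genes and in Kupffer cell markers, so the tests of the 10 genes against HFD are also given without that library. It was picked by the levels of these same genes, so fits without it are descriptive and not independent support. Fenofibrate library 1 held markers of pancreatic acinar cells, which summed to 0.359 to 1387 CPM over the Fenofibrate libraries, 0 to 0.471 CPM over the HFD libraries and 0.249 to 0.972 CPM over the Control libraries. Striated muscle markers reached 175 CPM in the Fenofibrate group, where libraries 1 and 3 were high, against at most 1.08 CPM in any HFD and 0.683 CPM in any Control library. Summed markers of hepatocytes, the bulk of the tissue, lay between 108529 and 142966 CPM in Fenofibrate, 126635 and 155488 CPM in HFD and 140287 and 171071 CPM in Control libraries. The 10 endothelial genes together made 365 ± 20.1 CPM in Fenofibrate, 373 ± 99.8 CPM in HFD and 391 ± 45.7 CPM in Control livers (SD, n = 4 each).

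To rank the genes against each other, levels were divided by the summed exon length in the GENCODE M21 annotation. In Control livers Clec4g led with 16.8 ± 2.6 CPM per kb (SD, n = 4). Oit3 (12.3 ± 1.75), Dnase1l3 (12.1 ± 1.74) and Fcgr2b (11.6 ± 1.83 CPM per kb) followed and differed from one another by less than 1 SD. Cdh5 (7.02 ± 1.38), Stab2 (6.34 ± 0.911), Kdr (5.32 ± 1.09), Lyve1 (4.56 ± 1.14) and Pecam1 (4.11 ± 0.692 CPM per kb) formed a lower run, in which neighbours differed by less than the larger of their SDs. Tek was lowest with 2.95 ± 0.501 CPM per kb. The genes that lead are thus a lectin, 2 secreted proteins and an Fc receptor, ahead of the general endothelial genes.

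The plainest feature of these genes was the low level of all 10 in 1 library. That this library stands apart was known from these same data before the counts below were made. Genes of 1 library are also not independent, so the counts describe the library and are not a test. HFD library 1 had the lowest level of the 4 HFD libraries for 10 of 10 genes and of all 12 libraries for 9 of 10; over all genes tested, it was the lowest HFD library for 27.8% and the lowest of the 12 libraries for 12.9%. The exception was Clec4g, whose lowest value was in Fenofibrate library 1. Summed over the 10 genes, the Fenofibrate libraries held 366, 340.2, 365 and 389.6 CPM, the HFD libraries 226, 399, 424 and 444 CPM, and the Control libraries 411, 395, 327 and 433 CPM. The next lowest sum after HFD library 1 was that of Control library 3.

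**Figure D1:**
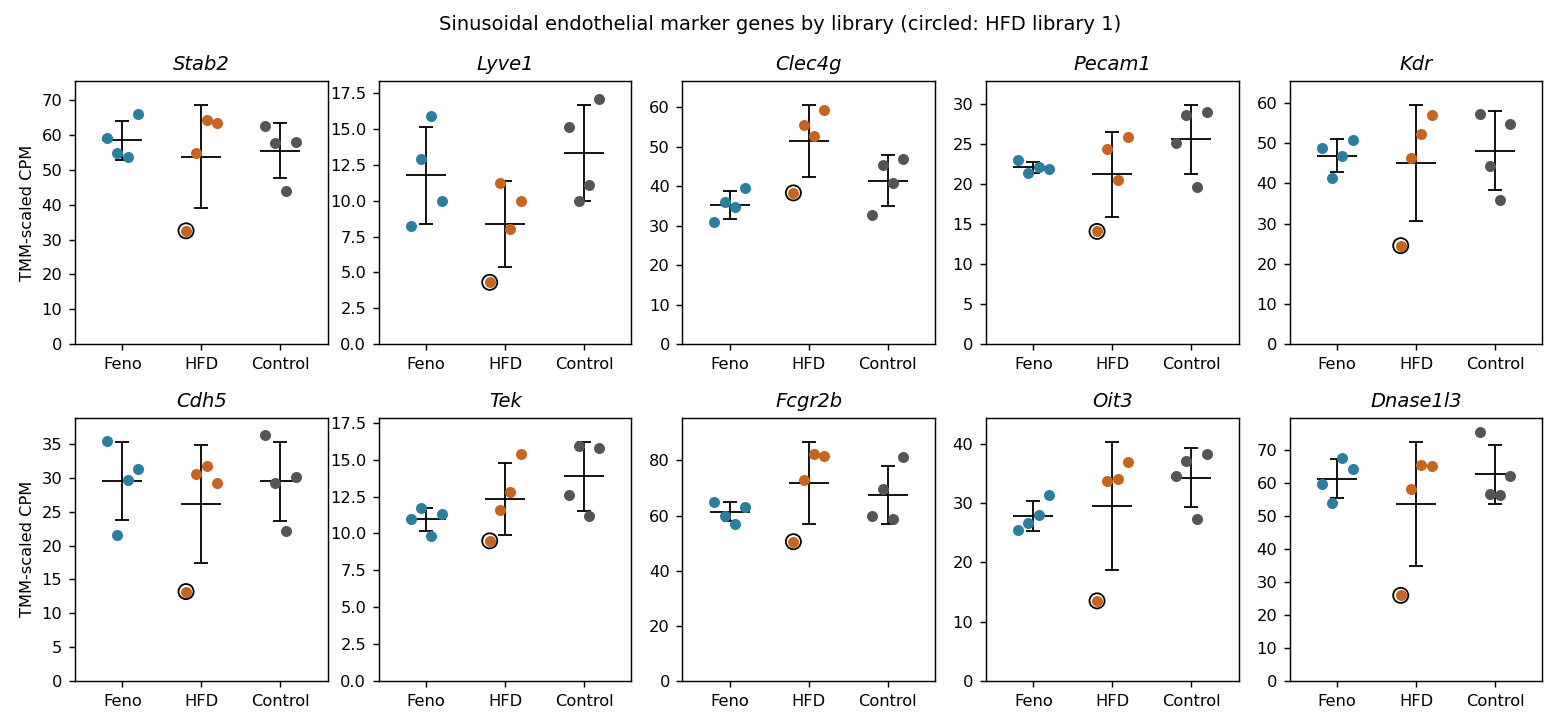
Level (TMM-scaled CPM, vertical axis from 0) of each of the 10 genes in every library of the Fenofibrate (Feno), HFD and Control groups; points are libraries, the horizontal line is the group mean and the bars are ± 1 SD (n = 4). The circled HFD library 1 is the lowest HFD library in all 10 panels, and Clec4g is the gene whose other HFD libraries (52.8 to 59.2 CPM) lie above all Fenofibrate and Control libraries.

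Relative to the mean of the other 3 HFD libraries, HFD library 1 held 0.386 of the level for Oit3, 0.412 for Dnase1l3, 0.433 for Cdh5, 0.443 for Lyve1, 0.471 for Kdr and 0.534 for Stab2. Pecam1 (0.597), Fcgr2b (0.64), Clec4g (0.686) and Tek (0.716) stood less far below. In all, 7 of 10 genes were under 0.6 of the other libraries' mean, against 6.43% of all genes tested. Without this library the coefficient of variation within HFD was 4.17% to 16.6% over the 10 genes, against 17.8% to 36.6% with it. Control library 3 showed a smaller version of the pattern: it was the lowest Control library for 8 of 10 genes, at a median of 0.801 of the Control mean.

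**Figure D2:**
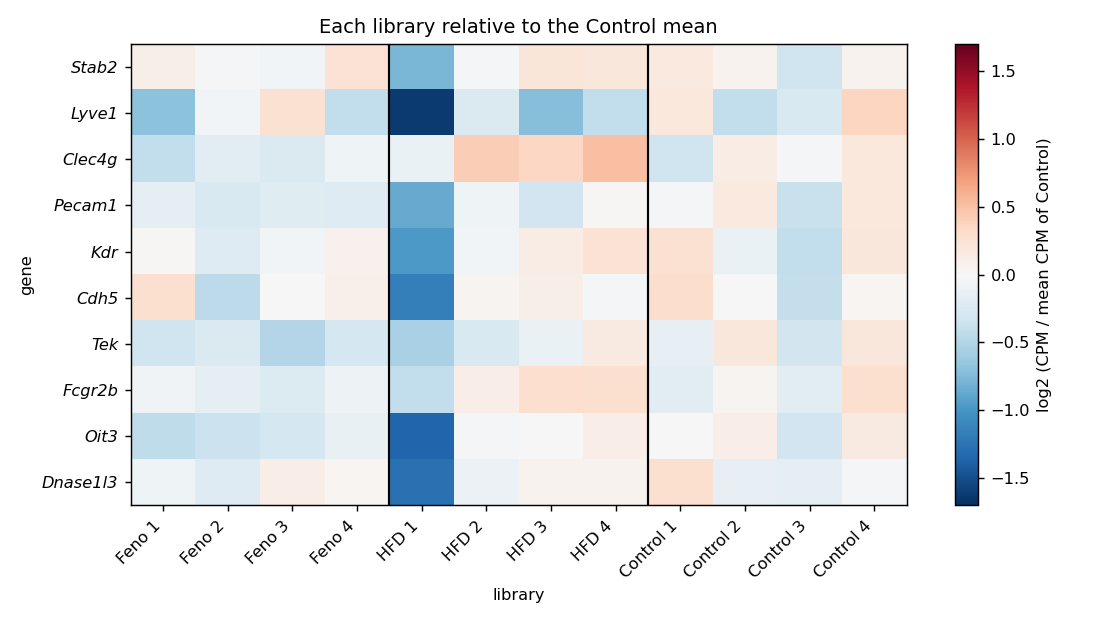
Colour shows log2 of each library's CPM over the mean CPM of the Control libraries, for the 10 genes (rows) in the 12 libraries (columns, black lines between groups). The column of HFD library 1 is blue throughout, with a median of 0.53 of the Control mean, and the Clec4g row is red in HFD libraries 2 to 4.

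Other lists of markers, chosen like the 10 genes with earlier results of these data known, moved in the same library to differing extents. Of 13 other genes of sinusoidal endothelium, 10 were lowest of the 12 libraries in HFD library 1, with a median ratio to the other HFD libraries of 0.561. Of 21 genes of endothelium in general, 13 were lowest there (median ratio 0.669), and of 7 genes of large or continuous vessels, 4 were (0.702). The 7 pericentral genes had a median ratio of 0.642 with 3 lowest there, and the 5 periportal genes 0.58 with 2. The ligands and receptors of the VEGF and angiopoietin systems were less low (median 0.866, 3 of 10 lowest), and the 2 tested lymphatic genes were not low (1.68, 0 of 2). Markers of Kupffer cells, the macrophages that sit inside the sinusoids, were low as well: 9 of their 10 markers were lowest there, and all 10 were under 0.6 (median 0.509). Summed Kupffer markers lay between 384 and 593 CPM in Fenofibrate, 328 and 707 CPM in HFD (629 to 707 CPM without library 1) and 416 and 597 CPM in Control libraries.

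Markers of hepatocytes and bile duct cells were not low in this library. The 11 hepatocyte genes had a median ratio of 1.1 and none was lowest of the 12 there, and the 5 bile duct genes had a median ratio of 1.5. The 9 stellate cell genes, markers of the pericytes of the sinusoid, had a median ratio of 0.817, with 2 lowest there and 0 under 0.6. For the 6 B cell genes the median ratio was 0.917, and for all genes tested it was 1.01. Which difference in the tissue piece, the cells or the RNA goes with HFD library 1 was not tested.

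**Figure D3:**
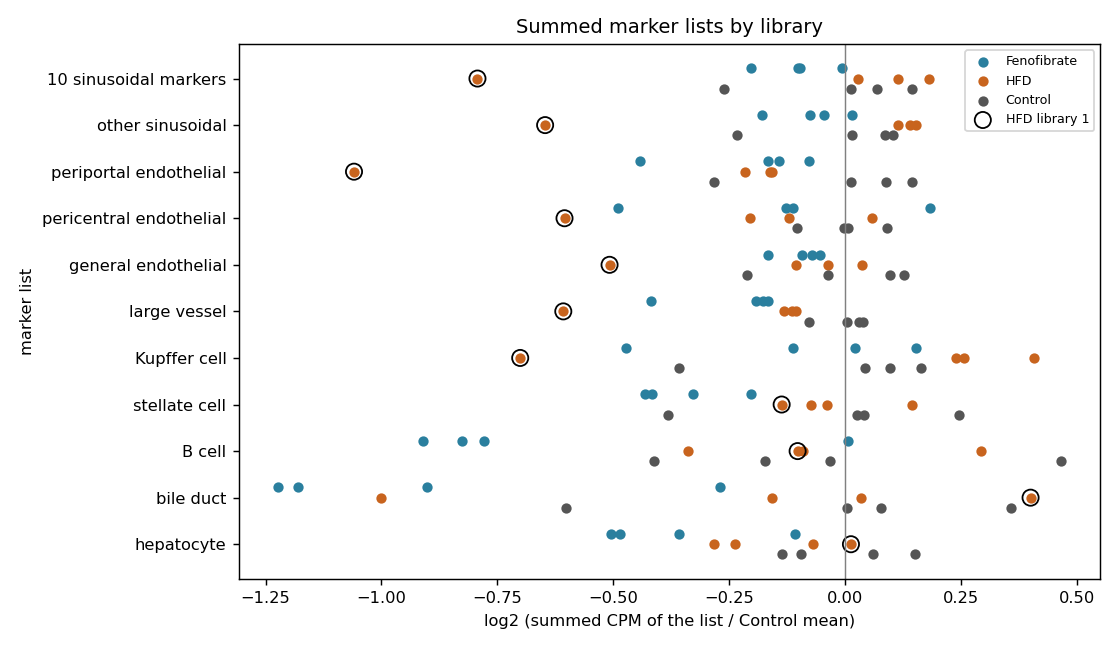
Horizontal axis: log2 of the summed CPM of a marker list in a library over its Control mean; each row is a list and each point a library of the Fenofibrate, HFD or Control group. The circled HFD library 1 is the leftmost point for the 10 sinusoidal markers, the 5 other endothelial lists drawn and the Kupffer list, and lies close to the Control mean for hepatocyte genes.

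The diet comparison asked how livers after the high-fat diet differed from livers on a normal diet. None of the 10 genes passed the threshold of an adjusted p under 0.05 (edgeR's quasi-likelihood test, Benjamini-Hochberg over all 13477 genes), while 12.8% of all genes did (6.13% higher and 6.64% lower in HFD); DESeq2 and limma-voom also called 0 of 10, and 2 genes, Lyve1 and Clec4g, had an unadjusted p under 0.05. Counts at an unadjusted p, here and below, have no share of all genes beside them and are not read as a result. The median log2 fold change of the 10 genes was -0.17 (0.04 without HFD library 1), beside -0.02 for all genes tested. The values of HFD and Control libraries overlapped for each of the 10 genes. Over all genes tested 17.6% showed no overlap, so 0 of 10 is not read as a trait of these genes.

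Among the scavenger receptors, Stab2, a hyaluronan receptor, held 32.5, 54.9, 64.3 and 63.4 CPM in HFD livers, against 62.5, 57.6, 44 and 57.9 CPM in Control livers. Apart from HFD library 1, the HFD values fall within or just above the Control range (log2 fold change -0.05 ± 0.17 SE, adjusted p = 0.903; 0.13 ± 0.12 and 0.566 without HFD library 1). Lyve1, a hyaluronan receptor that lymphatic endothelium also carries, had 4.31, 11.2, 8.03 and 9.97 CPM in HFD livers, against 15.1, 9.97, 11.1 and 17.1 CPM in Control livers. The HFD values of Lyve1 were at or below the lowest Control values in 3 of 4 libraries, and its log2 fold change of -0.66 ± 0.26 was the largest in size of the 10 genes without passing (adjusted p = 0.115; -0.45 ± 0.23 and 0.255 without HFD library 1). Fcgr2b, the inhibitory Fc receptor that clears immune complexes, held 50.5, 73, 82.4 and 81.7 CPM in HFD livers, against 59.7, 69.8, 58.7 and 81.3 CPM in Control livers (0.09 ± 0.14, adjusted p = 0.728; 0.23 ± 0.12 and 0.254 without HFD library 1). Fcgr2b is also carried by B cells and macrophages and resembles Fcgr3, so its single values are less certain.

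Clec4g, a C-type lectin of sinusoidal endothelium also known as LSECtin, ran the other way. It held 38.3, 55.4, 52.8 and 59.2 CPM in HFD livers, against 32.6, 45.3, 40.7 and 46.9 CPM in Control livers. HFD library 1 is the only HFD library inside the Control range. With all libraries the log2 fold change was 0.32 ± 0.14 (adjusted p = 0.157). Without HFD library 1 Clec4g passed, at 55.8 ± 3.19 CPM in HFD (n = 3) and 41.4 ± 6.4 CPM in Control livers (n = 4), with a log2 fold change of 0.43 ± 0.12 (adjusted p = 0.0411 by edgeR); 9.31% of all genes passed in that fit. The HFD and Control values then do not overlap, as for 22.1% of all genes. HFD library 1 was singled out for low levels of these same genes and holds the lowest HFD value of Clec4g. Leaving it out raises the HFD mean and narrows the spread by construction, so this call is not independent support. Kupffer cell markers moved the same way without that library: 2 of 10 passed as higher in HFD. Their sum was 629 to 707 CPM in HFD and 416 to 597 CPM in Control libraries. Whether the Clec4g values go with these markers was not tested.

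The junction and growth factor receptor genes gave small changes. Kdr, the main VEGF receptor of endothelium, held 24.5, 46.4, 52.3 and 57.1 CPM in HFD livers, against 57.3, 44.4, 35.9 and 54.7 CPM in Control livers (-0.09 ± 0.2, adjusted p = 0.821). Cdh5, the cadherin of endothelial junctions, held 13.2, 30.6, 31.7 and 29.2 CPM in HFD livers, against 36.4, 29.3, 22.2 and 30.1 CPM in Control livers (-0.17 ± 0.23, adjusted p = 0.681). For both genes the low mean in HFD comes with library 1, and their log2 fold changes were 0.11 ± 0.15 and 0.05 ± 0.17 without it. Pecam1, an adhesion molecule also found on platelets and leukocytes, averaged 21.2 ± 5.28 CPM in HFD and 25.6 ± 4.31 CPM in Control livers (log2 fold change -0.27 ± 0.16, adjusted p = 0.308; -0.12 ± 0.13 and 0.647 without HFD library 1). Tek, the angiopoietin receptor, averaged 12.3 ± 2.47 CPM in HFD and 13.9 ± 2.36 CPM in Control livers (-0.17 ± 0.15, adjusted p = 0.518; -0.06 ± 0.15 and 0.839 without that library).

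The genes of the secreted proteins had the lowest ratios in HFD library 1. Oit3, a zona pellucida domain protein, held 13.5, 33.7, 34 and 37 CPM in HFD livers, against 34.6, 37.1, 27.3 and 38.2 CPM in Control livers (-0.21 ± 0.22, adjusted p = 0.585). Dnase1l3, a nuclease that digests DNA in circulating particles, held 25.9, 58.2, 65.5 and 65 CPM in HFD livers, against 75.4, 56.7, 56.2 and 62 CPM in Control livers (-0.22 ± 0.21, adjusted p = 0.551). Without library 1, the log2 fold changes were 0.03 ± 0.12 for Oit3 and 0.01 ± 0.12 for Dnase1l3, so the sign of both turned.

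**Figure D4:**
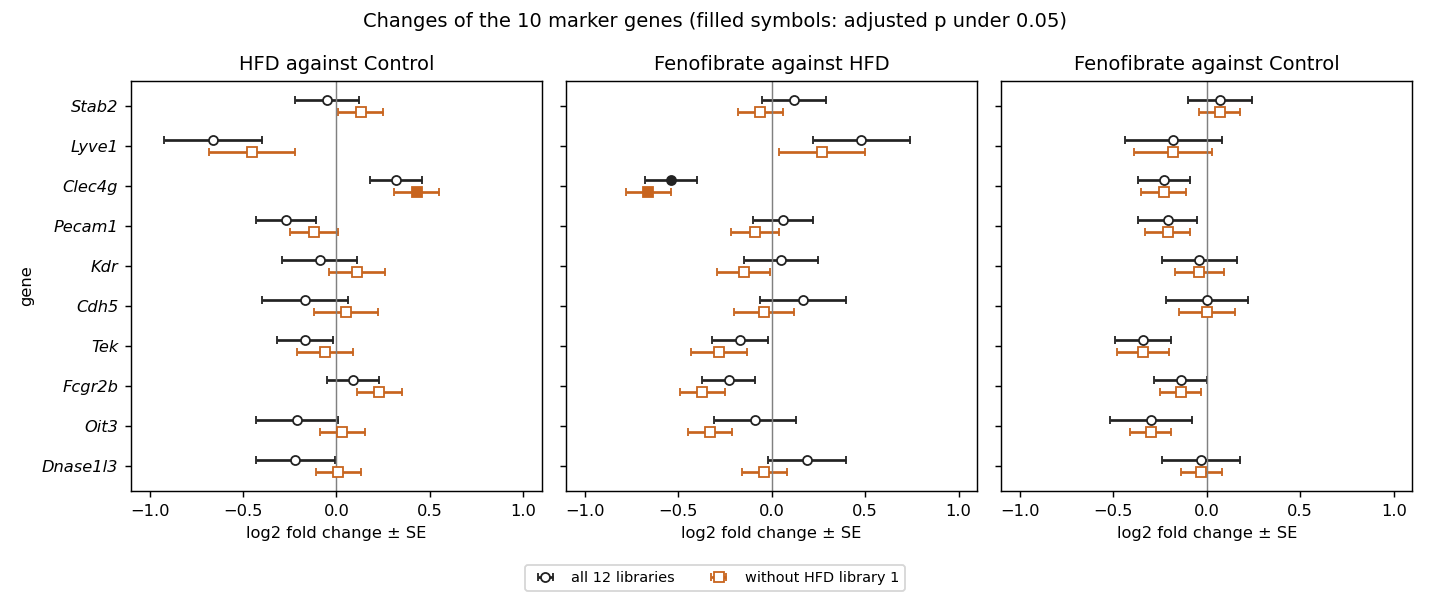
Log2 fold change ± SE (horizontal axis) of each gene in the 3 comparisons, from edgeR with all 12 libraries (circles) and without HFD library 1 (squares); filled symbols have an adjusted p under 0.05. Clec4g has the filled symbols: -0.54 for Fenofibrate against HFD with all libraries, and 0.43 and -0.66 for both comparisons with HFD once library 1 is left out.

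The second comparison asked what fenofibrate changed in mice kept on the high-fat diet; it shares the HFD libraries with the first, so changes of opposite sign in both are not independent. Clec4g fell and the other 9 genes did not pass, so 1 of 10 was called, beside 13.5% of all genes tested (6.88% higher and 6.59% lower in Fenofibrate); DESeq2 and limma-voom called the same gene alone. A count of 1 in 10 is near the share of all genes. Clec4g held 30.9, 36.1, 34.8 and 39.5 CPM in Fenofibrate livers, against 38.3, 55.4, 52.8 and 59.2 CPM in HFD livers. Fenofibrate library 4 lies above HFD library 1 and below the other HFD libraries, so the groups overlap by that pair. The mean was 35.3 ± 3.54 CPM in Fenofibrate and 51.4 ± 9.15 CPM in HFD livers (SD, n = 4 each), a log2 fold change of -0.54 ± 0.14 (adjusted p = 0.0211 by edgeR). The authors' deposited table gives a log2 fold change of -0.55 with an adjusted p of 0.00243 for Clec4g and does not mark it as significant.

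The call for Clec4g did not hold without each library. HFD library 1 has the lowest HFD level of Clec4g, so leaving it out widens the difference by construction. The adjusted p of Clec4g, from edgeR throughout, was 0.00973 (log2 fold change -0.66 ± 0.12) in that fit, in which 6.24% of all genes passed. It was 0.0687 with Fenofibrate library 1 left out, 0.0655 with Fenofibrate library 3, 0.0538 with HFD library 2 and 0.0705 with HFD library 4 left out, with log2 fold changes of -0.48, -0.53, -0.51 and -0.47. With both Fenofibrate libraries that hold muscle markers left out, it was 0.255 (-0.44). Calls over all genes also dropped in that fit, to 55 higher and 69 lower, from 927 and 888 with all libraries. When libraries were scaled to the sum of the 21 general endothelial genes in place of TMM, an alternative chosen after seeing the data, Clec4g fell by 0.58 on the log2 scale (adjusted p = 0.0452). As a share of the summed CPM of the 10 genes, Clec4g made up 8.43%, 10.6%, 9.53% and 10.1% in Fenofibrate livers, against 16.9%, 13.9%, 12.5% and 13.3% in HFD livers. Control livers had shares of 7.92%, 11.5%, 12.5% and 10.8%, which reach the lowest HFD share. The Fenofibrate and HFD shares do not overlap. HFD library 1, where the sum is lowest, has the highest share of all 12 libraries. Clec4g is part of the sum it is divided by, and this measure has no share of all genes beside it. The shares are therefore not read as a result. The annotated gene Gm16553 overlaps Clec4g on the other strand; the strand setting of the counting is not given, so reads of the pair may not be separated.

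Fcgr2b and Oit3 came closest to Clec4g once HFD library 1 was left out. Fcgr2b held 64.9, 60, 57.1 and 63.2 CPM in Fenofibrate livers, all below the 73 to 82.4 CPM of HFD libraries 2 to 4 (log2 fold change -0.37 ± 0.12, adjusted p = 0.0731 without HFD library 1; -0.23 ± 0.14 and 0.288 with it). Oit3 held 25.4, 26.7, 27.9 and 31.4 CPM in Fenofibrate livers, all below the 33.7 to 37 CPM of HFD libraries 2 to 4 (-0.33 ± 0.12, adjusted p = 0.108 without HFD library 1; -0.09 ± 0.22 and 0.821 with it). Neither gene passed, and 24.7% of all genes show no overlap between the groups when HFD library 1 is left out, so 3 of 10 is near that share. Summed Kupffer markers show the same order without that library, at 384 to 593 CPM in Fenofibrate and 629 to 707 CPM in HFD libraries, and B cell markers, relevant to Fcgr2b, summed to 4.31 to 8.14 CPM in Fenofibrate and 6.41 to 9.93 CPM in HFD libraries. Their part in these values was not tested.

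Lyve1 had 8.24, 12.9, 15.9 and 9.99 CPM in Fenofibrate livers, against 4.31, 11.2, 8.03 and 9.97 CPM in HFD livers. Its log2 fold change of 0.48 ± 0.26 was the largest positive one of the 10 genes and did not pass (adjusted p = 0.223; 0.27 ± 0.23 and 0.483 without HFD library 1). Within groups Lyve1 had a coefficient of variation of 28.7% in Fenofibrate, 36% in HFD and 25% in Control, the highest of the 10 genes in Fenofibrate and Control and second to Oit3 (36.6%) in HFD. Markers of lymphatic endothelium, which shares Lyve1, summed to 1.7 to 6.66 CPM in Fenofibrate, 1.1 to 2.22 CPM in HFD and 1.9 to 4.79 CPM in Control libraries; their part in the Lyve1 values was not tested.

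The remaining 6 genes had log2 fold changes between -0.17 and 0.19 for Fenofibrate against HFD. Stab2 held 59.2, 54.8, 53.7 and 66 CPM in Fenofibrate livers, around the values of HFD libraries 2 to 4 (0.12 ± 0.17, adjusted p = 0.672). Dnase1l3 held 59.5, 53.9, 67.4 and 64.2 CPM in Fenofibrate livers (0.19 ± 0.21, adjusted p = 0.571), Kdr 48.8, 41.2, 46.7 and 50.7 CPM (0.05 ± 0.2, adjusted p = 0.883) and Cdh5 35.5, 21.6, 29.7 and 31.3 CPM (0.17 ± 0.23, adjusted p = 0.631). All 4 of these genes had small positive changes with HFD library 1 and negative ones without it: -0.06 ± 0.12 for Stab2, -0.04 ± 0.12 for Dnase1l3, -0.15 ± 0.14 for Kdr and -0.04 ± 0.16 for Cdh5. Pecam1 was even across Fenofibrate libraries, at 23, 21.4, 22.2 and 21.9 CPM, against 14.1, 24.4, 20.5 and 25.9 CPM in HFD livers (0.06 ± 0.16, adjusted p = 0.83; -0.09 ± 0.13 and 0.695 without HFD library 1). Tek held 11, 11.7, 9.86 and 11.3 CPM in Fenofibrate livers, against 9.5, 11.6, 12.8 and 15.4 CPM in HFD livers (-0.17 ± 0.15, adjusted p = 0.468; -0.28 ± 0.15 and 0.252 without that library). The median log2 fold change of the 10 genes was 0.06, and -0.12 without HFD library 1, beside 0.01 for all genes tested.

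The third comparison set treated livers beside livers on a normal diet; it shares libraries with both other comparisons and does not use HFD libraries except for the common estimate of spread. None of the 10 genes passed by edgeR, DESeq2 or limma-voom, against 9.19% of all genes by edgeR (4.86% higher and 4.33% lower in Fenofibrate), and Tek alone had an unadjusted p under 0.05. Tek averaged 11 ± 0.804 CPM in Fenofibrate and 13.9 ± 2.36 CPM in Control livers (log2 fold change -0.34 ± 0.15, adjusted p = 0.176), with Fenofibrate values of 9.86 to 11.7 CPM and Control values of 11.2 to 15.9 CPM. Oit3 averaged 27.9 ± 2.58 CPM in Fenofibrate and 34.3 ± 4.88 CPM in Control livers (-0.3 ± 0.22, adjusted p = 0.426). Clec4g averaged 35.3 ± 3.54 CPM in Fenofibrate and 41.4 ± 6.4 CPM in Control livers (-0.23 ± 0.14, adjusted p = 0.335). Leaving HFD library 1 out of the fit still gave 0 of 10, beside 9.11% of all genes. The other 7 genes had log2 fold changes between -0.21 (Pecam1) and 0.07 (Stab2), and the median of the 10 was -0.16, beside -0.01 for all genes tested. The lowest coefficients of variation in Fenofibrate were those of Pecam1, Fcgr2b and Tek, at 3.04%, 5.69% and 7.33%, against 16.8%, 15.7% and 17% in Control. Lyve1 (28.7% against 25%) and Cdh5 (19.8% against 19.6%) varied no less than in Control, and the remaining genes varied less. No value for all genes is given beside these, so they are not read as a trait of the group.

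Further genes were read from 6 lists, called the other endothelial lists, which hold 63 genes, 61 of them tested. Among the 6 is the list of ligands and receptors of the VEGF and angiopoietin systems. The cells that made the ligands were not measured. In HFD against Control livers 3 were higher and 1 was lower, which is 6.56% of the 61 beside 12.8% of all genes. By edgeR, 18 of the 61 had an unadjusted p under 0.05, and the median log2 fold change of the 61 was -0.2. The share of all genes at that unadjusted p is not given here, so 18 of 61 is not read as an endothelial result. Nrp1, a co-receptor for VEGF and semaphorins on sinusoidal endothelium, held 51.5, 63.1, 54.5 and 55.8 CPM in HFD livers, against 34.8, 35.9, 40.3 and 36.7 CPM in Control livers. S1pr1, the receptor through which sphingosine-1-phosphate steadies endothelial junctions, held 59.2, 52.3, 59.8 and 62.8 CPM in HFD livers, against 41.3, 34.8, 30.9 and 44.9 CPM in Control livers. Neither gene's groups overlapped, as was the case for 17.6% of all genes, and both rose: log2 fold change 0.61 ± 0.1 for Nrp1 (adjusted p = 0.00127 by edgeR) and 0.62 ± 0.12 for S1pr1 (adjusted p = 0.00325). HFD library 1 was not low in either, at 0.891 of the mean of the other HFD libraries for Nrp1 and 1.02 for S1pr1. Both genes are also expressed outside the endothelium, Nrp1 in stellate cells among others and S1pr1 in lymphocytes, and the cells that carried the change were not measured.

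Calcrl, the receptor subunit for adrenomedullin, also rose on the diet, to 14.2 ± 0.789 CPM in HFD livers, against 10.1 ± 2.65 CPM in Control livers (0.5 ± 0.15, adjusted p = 0.046). That call passed in 8 of 24 other settings, and was lost whichever HFD library was left out. Vegfd, a ligand of the VEGF family, held 0.472, 0.765, 1.04 and 0.557 CPM in HFD livers, against 1.4, 1.3, 2.61 and 1.3 CPM in Control livers. It fell by 1.2 on the log2 scale (SE 0.37, adjusted p = 0.0442), with Control library 3 far above the others; the adjusted p was 0.141 and the log2 fold change -0.9 without that library, 0.114 and -1.06 without HFD library 1, and the call held in 12 of 24 settings.

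In Fenofibrate against HFD livers 1 of the 61 genes was higher and 2 were lower, or 4.92%, beside 13.5% of all genes. An unadjusted p under 0.05 by edgeR was found for 9 of the 61. The groups did not overlap for 20.7% of all genes. Nrp1 held 46.4, 36.1, 45.4 and 47.2 CPM in Fenofibrate livers, below all HFD libraries (-0.36 ± 0.1, adjusted p = 0.0304 by edgeR). Calcrl held 11.3, 9.05, 9.62 and 9.6 CPM in Fenofibrate livers, below the 13.5 to 15.2 CPM of HFD livers (-0.52 ± 0.15, adjusted p = 0.0366). Both fell relative to HFD, and both calls were lost in many settings: Nrp1 passed in 16 of 24, with adjusted p up to 0.186, and Calcrl in 13 of 24, with adjusted p up to 0.229. Without HFD library 1, Nrp1 passed (adjusted p = 0.0424) and Calcrl did not (0.0654). Thbd, the thrombin receptor thrombomodulin, which is strong in central vein endothelium, rose to 5.05 ± 1.34 CPM in Fenofibrate livers, against 2.5 ± 0.997 CPM in HFD livers (1 ± 0.26, adjusted p = 0.0241). The lowest Fenofibrate value of Thbd was 3.3 CPM and the highest HFD value 3.29 CPM. Without HFD library 1, the log2 fold change of Thbd was 0.78 ± 0.23 and the adjusted p 0.0575. Thbd passed in 18 of 24 other settings, with adjusted p up to 0.3. Without Fenofibrate libraries 1 and 3, the adjusted p of Thbd by edgeR was 0.199.

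In Fenofibrate against Control livers 2 of the 61 genes were higher and 0 lower, or 3.28%, beside 9.19% of all genes. An unadjusted p under 0.05 by edgeR was found for 9 of the 61. The groups did not overlap for 13.1% of all genes. S1pr1 held 61.9, 60.5, 48.3 and 54.4 CPM in Fenofibrate livers, above all Control libraries (0.57 ± 0.12, adjusted p = 0.00835 by edgeR). Nrp2, a neuropilin of venous and lymphatic endothelium that other liver cells also express, held 25.9, 23.5, 21.8 and 31.6 CPM in Fenofibrate livers, against 13.6, 17.8, 8.01 and 14.4 CPM in Control livers (0.93 ± 0.19, adjusted p = 0.00744). Nrp2 in HFD livers lay between, at 16, 16.1, 18 and 22.8 CPM. S1pr1 and Nrp2 passed in all 24 other settings run, as did Nrp1 and S1pr1 in HFD against Control.

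**Figure D5:**
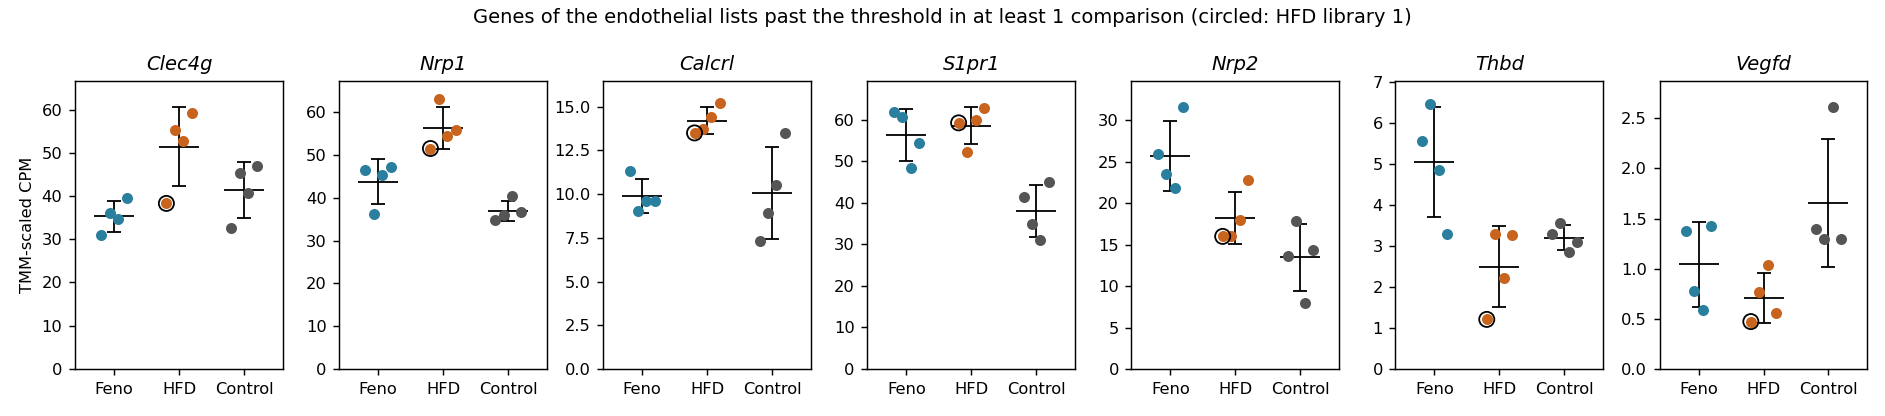
Level (TMM-scaled CPM, vertical axis from 0) of Clec4g and of the 6 genes of the other endothelial lists that had an adjusted p under 0.05 in at least 1 comparison; points are libraries, lines are means and bars ± 1 SD (n = 4), and HFD library 1 is circled. Nrp1 and Calcrl are higher in every HFD library than in any Fenofibrate library. Clec4g is higher in HFD on average, but HFD library 1 lies below Fenofibrate library 4. S1pr1 is high in both groups on the diet, and HFD library 1 sits with its group for Nrp1, Calcrl, S1pr1 and Nrp2.

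The 19 tested pericentral, periportal and large vessel genes gave 0 calls by edgeR in HFD against Control, beside 12.8% of all genes. Of the 19, 5 had an unadjusted p under 0.05 by edgeR. DESeq2 and limma-voom called 2 each, and those of DESeq2 were Vwf and Ntn4. In Fenofibrate against Control these lists gave 0 calls by all 3 tools, beside 9.19% of all genes by edgeR. An unadjusted p under 0.05 by edgeR was found for 3 of the 19 genes. Of the 7 pericentral genes the most abundant were Fabp4, a lipid-binding protein, and Kit, a growth factor receptor. Fabp4 averaged 7.78 ± 0.675 CPM in HFD and 8.99 ± 1.6 CPM in Control livers (adjusted p = 0.648), and Kit 4.6 ± 1.4 CPM in HFD and 5.4 ± 0.985 CPM in Control livers (-0.23 ± 0.21, adjusted p = 0.538; -0.05 ± 0.18 and 0.906 without HFD library 1). Of the 5 periportal genes, Ltbp4, a matrix protein that binds latent TGF-beta, held 22.9, 47.6, 41.7 and 47.6 CPM in HFD livers, against 59.6, 56, 40.1 and 58.7 CPM in Control livers (-0.42 ± 0.19, adjusted p = 0.162; -0.23 ± 0.14 and 0.337 without HFD library 1). Msr1, a scavenger receptor shared with macrophages, averaged 8.81 ± 1.67 CPM in Fenofibrate and 11.5 ± 2.75 CPM in HFD livers (-0.39 ± 0.18, adjusted p = 0.16; -0.55 ± 0.16 and 0.051 without HFD library 1). Plvap, a protein of endothelial diaphragms, averaged 39.3 ± 6.37 CPM in HFD and 44.5 ± 2.72 CPM in Control livers (-0.18 ± 0.12, adjusted p = 0.381; -0.07 ± 0.11 and 0.749 without HFD library 1), and Cldn5, a tight junction protein, 7.68 ± 1.38 CPM in HFD and 9.21 ± 1.12 CPM in Control livers (adjusted p = 0.262). Of the other sinusoidal genes, the water channel gene Aqp1 averaged 114 ± 4.55 CPM in Fenofibrate and 125 ± 17.8 CPM in Control livers (adjusted p = 0.694), and Ehd3, a membrane trafficking protein, 57.1 ± 6.75 CPM in Fenofibrate and 62.6 ± 7.29 CPM in Control livers (adjusted p = 0.671).

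The genes whose pattern over the 12 libraries was most like the mean pattern of the 10 were sought among 9108 genes with a mean of at least 5 CPM, by the root mean square difference of standardised log2 levels. The nearest were F8, coagulation factor VIII, which sinusoidal endothelium makes (0.19 SD units), Aqp1 (0.254), the adhesion receptor gene Adgrl4 (0.318), Mmrn2, a matrix protein of endothelium (0.32), and Rasgrp3, an activator of Ras proteins (0.353). Among these, 4 of 5 are on the other endothelial lists, which were chosen with earlier results of these data known. The share of the 9108 genes on those lists is not given here, so the count is descriptive. F8 held 15.4, 13.2, 13.8 and 16.1 CPM in Fenofibrate, 7.48, 19.9, 18.8 and 21 CPM in HFD, and 18.3, 20, 14.1 and 22.6 CPM in Control livers. The likeness rests largely on HFD library 1. Without that library F8 was still the nearest (0.419), while Adgrl4 ranked 9, Aqp1 11, Mmrn2 15 and Rasgrp3 103. The next nearest were then Lhfpl2, Dhx33, Gspt1 and Zmynd19 (0.422 to 0.498), none of which is on the other endothelial lists.

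The 10 genes were not equally close to their own mean pattern over all 12 libraries, HFD library 1 included. Each of the 10 is part of that mean, and genes outside the 10 are not. The 10 therefore lie nearer by construction, and the counts of nearer genes outside them are not a like-for-like comparison. Oit3 was nearest (0.181 SD units), with no other gene outside the 10 nearer, followed by Kdr (0.334) and Pecam1 (0.405). Lyve1 lay at 0.777, with 113 genes outside the 10 nearer, and Clec4g at 1.02, with 560. Clec4g was thus the member that followed the others least over the 12 libraries.

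In the coordinates of the deposited tables, which match GRCm38, Clec4g (ENSMUSG00000074491) lies on chromosome 8 from 3707064 to 3720651 on the minus strand, and Cdh5 on the same chromosome from 104101625 to 104144511 on the plus strand. Stab2 (chromosome 10, 86841198 to 87008025) and Oit3 (chromosome 10, 59422958 to 59441778) share a chromosome, both on the minus strand. Lyve1 lies on chromosome 7 (110850607 to 110863239), Pecam1 on chromosome 11 (106654217 to 106750628), Kdr on chromosome 5 (75932827 to 75978458) and Tek on chromosome 4 (94739289 to 94874976). Fcgr2b lies on chromosome 1 (170958617 to 170976547) and Dnase1l3 on chromosome 14 (7964533 to 7994573). Besides Clec4g, Stab2 is overlapped by 5 annotated genes on the other strand and Cdh5 and Fcgr2b by 1 each, so their counts may hold reads of those genes.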

How the data were processed

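Liver RNA of 12 libraries was analysed from 2 tables joined by gene identifier, in which 22657 of 25164 genes are shared; genes listed in 1 table alone were set to 0 counts in the other. Raw counts per gene were deposited by the authors, per the file headers. The deposited mean signal (scaled counts over the libraries), fold change as a ratio, log2 fold change and p-values come from the authors' comparison, per the file headers, and were used for Clec4g alone. Per the submitters' processing notes, the tools were HISAT2 2.0.5, HTSeq 0.6.0 and StringTie 1.3.2d. These list mm8 and mm9, but 92.49% of 25113 positions are identical to GENCODE M21 on GRCm38. No source used here gives the strand setting.

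Counts of all 12 libraries were fitted with edgeR 4.0.16 in R 4.3.3 (filterByExpr, TMM, quasi-likelihood test, 1 coefficient per group, prior count of 0.125, Benjamini-Hochberg over 13477 genes). Rose and fell mean an adjusted p under 0.05. The SE is the size of the log2 fold change over the square root of F. The TMM factor of HFD library 1 was 0.896. Chi-square per gene between libraries of a group was 14.7 to 41.2, so no library was a copy. Exon lengths are unions over transcripts from GENCODE M21, since the tables hold no length. Steps were tested on simulated data.

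The 10 genes and the 16 other lists were chosen with earlier results of these data known. Of each other endothelial list, up to 4 genes per comparison that passed were named, or the 2 most abundant where none passed, and the 5 genes nearest in pattern. Alternatives were DESeq2 1.42.0, limma-voom (limma 3.58.1), other scaling and filters, the replicate block, a stricter threshold and libraries left out. The hepatocyte gene Tf was not found under that symbol.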

Additional observations from a re-analysis of the deposited data

Results flagged for a closer look

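Among 72 groups of 4 libraries (24 named genes in 3 groups), 10 held a library whose distance to its nearest neighbour was large relative to the range of the group; chance marks about 1 in 20 groups, and genes of one library are not independent. Of the 10, 5 were HFD library 1 as the lowest of its group: Cdh5 at 13.2 CPM with the others at 29.2 to 31.7 CPM, Oit3 at 13.5 CPM (33.7 to 37), Aqp1 at 65.6 CPM (130.3 to 142), Ehd3 at 35.5 CPM (65.3 to 66.9) and Plvap at 29.8 CPM (41.2 to 43.2). Control library 3 was low in Aqp1, at 98.5 CPM with the other Control libraries at 133 to 135 CPM, and high in Vegfd, at 2.61 CPM with the others at 1.3 to 1.4 CPM. Fenofibrate library 2 was low in Nrp1, at 36.1 CPM with the others at 45.4 to 47.2 CPM, and Fenofibrate library 4 was high in Ehd3, at 67.2 CPM with the others at 52.7 to 55 CPM. Control library 1 was low in Fabp4, at 6.59 CPM with the others at 9.75 to 9.82 CPM.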

How the results depend on the processing

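Of 57 log2 fold changes of the named genes, each under up to 24 other settings, 31 kept their direction and their side of the threshold in all settings, and 18 reversed at least 1 time; the largest of those 18 was 0.22 in size. With 1 library left out, the log2 fold changes of Fenofibrate against HFD ran from -0.04 to 0.3 for Cdh5, -0.04 to 0.3 for Dnase1l3, -0.15 to 0.19 for Kdr, -0.33 to 0.04 for Oit3, -0.09 to 0.17 for Pecam1, -0.14 to 0.05 for Plvap and -0.06 to 0.22 for Stab2. For HFD against Control they ran from -0.29 to 0.05 for Cdh5, -0.33 to 0.01 for Dnase1l3, -0.23 to 0.11 for Kdr, -0.34 to 0.03 for Oit3 and -0.14 to 0.13 for Stab2. For Fenofibrate against Control they ran from -0.11 to 0.14 for Cdh5, -0.08 to 0.09 for Dnase1l3, -0.16 to 0.07 for Kdr, -0.17 to 0.01 for Msr1 and -0.02 to 0.15 for Stab2. Without HFD library 1 and Fenofibrate libraries 1 and 3, chosen after seeing the data, reversed values for Fenofibrate against HFD were -0.2 for Cdh5, -0.09 for Dnase1l3, -0.17 for Kdr, -0.12 for Pecam1 and -0.01 for Stab2; for HFD against Control they were 0.06 for Cdh5, 0.02 for Dnase1l3, 0.12 for Kdr, 0.04 for Oit3 and 0.15 for Stab2. Scaling to the summed general endothelial genes, also chosen after seeing the data, gave 0.01 for Cldn5, 0.06 for Dnase1l3 and 0.07 for Kdr in Fenofibrate against Control, and 0.03 for Kdr and 0.07 for Stab2 in HFD against Control. Cdh5 in Fenofibrate against Control was 0.003 with all libraries and -0.14 without Fenofibrate libraries 1 and 3 (also -0.14 with HFD library 1 left out too), -0.002 without the low-count filter and -0.0004 with the replicate block; Oit3 in Fenofibrate against HFD was 0.01 with limma-voom. The causes were not tested.

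Genes called higher and lower numbered 826 and 895 for HFD against Control, 927 and 888 for Fenofibrate against HFD, and 655 and 583 for Fenofibrate against Control. At an adjusted p under 0.01 they were 343 and 360, 200 and 262, and 234 and 218. With scaling to general endothelial genes, 251 were lower in HFD against Control, 155 higher and 281 lower in Fenofibrate against HFD, and 417 higher and 184 lower in Fenofibrate against Control. Without Fenofibrate libraries 1 and 3, Fenofibrate against HFD gave 55 higher and 69 lower, and Fenofibrate against Control 215 and 158. With HFD library 1 left out as well, these were 34 and 38, and 222 and 166, and 535 were lower in HFD against Control. With 1 library left out, the counts ran from 548 to 832 higher and 555 to 930 lower for HFD against Control, 282 to 1211 and 328 to 1206 for Fenofibrate against HFD, and 383 to 858 and 310 to 852 for Fenofibrate against Control. Of the 10 genes, 0 or 1 (Clec4g) were called higher in HFD against Control and 0 or 1 (Clec4g) lower in Fenofibrate against HFD with 1 library left out. Clec4g was also called higher in HFD against Control without HFD library 1 and Fenofibrate libraries 1 and 3 (1 of 10), and 0 of 10 were lower in Fenofibrate against HFD in that setting, without Fenofibrate libraries 1 and 3, or at an adjusted p under 0.01. Replicate numbers were not taken as pairs, since same-numbered libraries had r from -0.175 to 0.139 after group means were removed; with the replicate block, 1 of 10 genes, Clec4g, was higher in HFD against Control (adjusted p = 0.0388 by edgeR), and genes called were 746 higher and 766 lower, 802 and 869, and 570 and 536. Levels of CPM without TMM moved by over 1 SD for 6 of 30 group means, all in Fenofibrate: Pecam1 24.2, Kdr 51.3, Tek 11.9, Fcgr2b 67, Oit3 30.4 and Dnase1l3 67.2 CPM.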

Other observations

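Fabp4, a lipid-binding protein of endothelium, macrophages and fat cells, held 10.4, 5.51, 6.61 and 3.35 CPM in Fenofibrate livers, against 6.59, 9.78, 9.75 and 9.82 CPM in Control livers. The highest value of all 12 was in Fenofibrate library 1, which also held acinar and muscle markers. With all libraries, Fabp4 did not pass in Fenofibrate against Control (log2 fold change -0.47 ± 0.25, adjusted p = 0.256 by edgeR). Without Fenofibrate library 1 it fell by 0.78 on the log2 scale (SE 0.21, adjusted p = 0.0415), and without Fenofibrate libraries 1 and 3 by 1.01 (SE 0.23, adjusted p = 0.0318). Genes called lower in these fits numbered 336 and 158, beside 583 with all libraries. Leaving out the library with the highest value lowers the Fenofibrate mean by construction. Fabp4 passed in 3 of 24 other settings, all of them without Fenofibrate library 1. Over the other settings the adjusted p reached 0.525, without Fenofibrate library 4.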
